A study of Mus musculus with 10 samples.

Results

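The fibrillar collagen genes *Col1a1*, *Col1a2*, *Col2a1*, *Col3a1*, *Col5a1*, *Col5a2*, *Col5a3* and *Col11a1* were examined in C2C12 cells after knockdown of *Fndc1*. They are 8 of the 55359 genes in the authors' table. The 8 genes were taken by symbol, as a family, and were picked because *Col1a1* was seen to be lower in these same libraries. Their values in the knockdown are therefore given as a description, with no p-value of their own. Where calls of the fit over all genes are counted for them, the share called over all genes stands beside the count and nothing is read from it.

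C2C12 is a mouse myoblast line whose cells leave the cell cycle and fuse into myotubes when serum is lowered. Either *Fndc1* was knocked down by siRNA (si-*Fndc1*, 5 libraries) or a control siRNA was given (si-Control, 5 libraries), and mRNA was sequenced at day 4 of differentiation per the labels, while the series' design text names an earlier time after transfection. All 10 libraries carried the same cell line, siRNA dose (100 nM per the labels) and differentiation medium with 2% horse serum. All 10 are also listed with 20% fetal bovine serum, while the paper's methods give a lower share for growing C2C12. The methods list a single siRNA sequence for *Fndc1*, and name fewer RNA-seq libraries than the 10 analysed here. The labels do not say whether the libraries of a group came from separate cultures, and the methods speak of independent experiments only in general, so that p-values measure only the spread between these libraries, which may be technical.

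Fibrillar collagens are the rod-like proteins of tendon, skin, bone and the connective tissue around muscle fibres. Each molecule is a triple helix of chains built from a long run of Gly-X-Y triplets, with glycine at the start of every triplet and proline or hydroxyproline often behind it. Type I collagen is made of *Col1a1* and *Col1a2* chains, with more of the former than of the latter in each molecule, type III of *Col3a1* chains alone, and type V of *Col5a1*, *Col5a2* and, in a rarer form, *Col5a3* chains. Types II (*Col2a1*) and XI (*Col11a1*) are known from cartilage. In muscle, the type I, III and V chains come mainly from fibroblasts and other mesenchymal cells, and cultured myoblasts also transcribe them.

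The repeat is the feature that the 8 genes share and that the rule did not use. The first 60 bases of the longest uninterrupted run of Gly-X-Y codons are shown for each gene, 5′ to 3′ on the coding strand, to show how alike the genes are in codon pattern and how they differ in base composition. Capitals mark glycine codons, including a few in the X or Y place.
Col1a1: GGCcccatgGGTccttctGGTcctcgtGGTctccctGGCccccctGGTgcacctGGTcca
Col1a2: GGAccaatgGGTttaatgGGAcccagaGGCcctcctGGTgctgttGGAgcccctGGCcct
Col3a1: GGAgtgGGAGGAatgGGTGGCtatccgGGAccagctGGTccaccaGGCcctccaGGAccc
Col5a1: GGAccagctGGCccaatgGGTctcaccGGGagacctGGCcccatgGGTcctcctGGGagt
Col5a2: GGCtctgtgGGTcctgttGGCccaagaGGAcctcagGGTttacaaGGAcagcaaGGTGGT
Col5a3: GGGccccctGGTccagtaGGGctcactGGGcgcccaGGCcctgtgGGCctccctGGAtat
Col11a1: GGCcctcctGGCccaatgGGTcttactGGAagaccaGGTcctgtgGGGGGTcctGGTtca
Col2a1: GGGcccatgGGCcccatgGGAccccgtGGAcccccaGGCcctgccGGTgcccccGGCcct

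These bases were read from the longest coding transcript of each gene in GENCODE vM1 (mouse build NCBIM37). In *Col1a1* they are coding bases 502 to 561, in exons 6 to 8, within chr11:94800765-94801223 on the plus strand. In *Col1a2* they are coding bases 289 to 348, also in exons 6 to 8, within chr6:4462406-4465486 on the plus strand. The stretch of *Col3a1* lies in exons 5 and 6 within chr1:45380607-45382228 on the plus strand, and that of *Col5a2*, its neighbour on the opposite strand, in exons 8 to 10 within chr1:45479279-45483841. The stretch of *Col5a1* lies in exons 14 and 15 within chr2:27819600-27820785 on the plus strand, and that of *Col5a3* in exons 14 and 15 within chr9:20605551-20605704 on the minus strand. For *Col11a1* it lies in exons 14 and 15 within chr3:113808320-113811213 on the plus strand, and for *Col2a1* in exons 8 to 10 within chr15:97826968-97827751 on the minus strand. The run has nearly the same length in every gene, from 337 triplets in *Col5a3* to 344 in *Col3a1*. Proline takes 19.1% of its residues in *Col1a2* and 24.1% in *Col5a1*, the lowest and the highest of the 8.

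Glycine is encoded by GGN and proline by CCN, and the run is 59.9% to 65.7% G and C. Over the whole transcript the share is 58.9% in *Col1a1*, 55.7% in *Col1a2*, 52.5% in *Col3a1*, 58.0% in *Col5a1*, 49.6% in *Col5a2*, 61.6% in *Col5a3*, 48.0% in *Col11a1* and 62.2% in *Col2a1*. The median over the 11185 tested genes with a known composition is 50.5%, so that *Col5a2* and *Col11a1* lie below it and the other members above. The last base of the codon sets the members apart, being G or C in 53.0% of the codons of *Col5a3* and in 28.4% of those of *Col3a1*.

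The libraries held 66771605 to 75995168 counted reads in the si-Control group and 56332844 to 72839369 after knockdown. *Fndc1*, the targeted gene, went from 27.8 ± 2.04 to 20.9 ± 1.70 FPKM (SD, n = 5 each), a unit that scales fragments to transcript length and library depth. Its log2 fold change of -0.40 ± 0.07 (standard error) had an adjusted p of 0.000934 by edgeR's quasi-likelihood test over the 13548 genes with a mean of at least 0.5 FPKM, and it was -0.22 (adjusted p = 0.0104) after correcting for GC content and length. Hepatocyte transcripts were far higher in all 5 si-*Fndc1* libraries than in si-Control, and their sums are given with the markers. The 8 collagen genes together took 1.58% to 1.72% of all counted reads in the si-Control libraries and 1.26% to 1.31% in the si-*Fndc1* libraries. In bulk RNA, fewer cells that express a gene cannot be told apart from less of its RNA per cell.

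*Col1a1* encodes the α1 chain of type I collagen (ENSMUSG00000001506, listed by the authors on chromosome 11 from 94827050 to 94843868, with no build named). In si-Control, libraries 1 to 5 were at 375.2, 359.5, 400.7, 383.0 and 358.3 FPKM. In si-*Fndc1*, libraries 1 to 5 were at 218.9, 223.1, 226.7, 214.4 and 201.5 FPKM. Every si-*Fndc1* library lay far below every si-Control library, with nothing in between. The means were 375.4 ± 17.6 and 216.9 ± 9.78 FPKM (SD, n = 5 each), 42.2% lower, and the log2 fold change was -0.78 (standard error 0.04). From 82620 to 208276 reads per library stood behind these values, so that counting error was small beside the spread between libraries.

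*Col1a2* encodes the α2 chain, the partner of *Col1a1* in the type I molecule (ENSMUSG00000029661, listed on chromosome 6 from 4504814 to 4541544). It had 212.7, 208.8, 228.7, 231.3 and 206.3 FPKM in si-Control libraries 1 to 5. It had 169.0, 172.2, 175.6, 171.1 and 161.9 FPKM in si-*Fndc1* libraries 1 to 5. The groups did not overlap here either, but the step was smaller than for its partner. The mean went from 217.6 ± 11.6 to 170.0 ± 5.10 FPKM (SD, n = 5 each), 21.9% lower, with a log2 fold change of -0.35 (standard error 0.04).

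*Col3a1*, the chain of type III collagen, which forms fine fibrils together with type I, was the highest member by level (ENSMUSG00000026043, listed on chromosome 1 from 45350698 to 45388866). In si-Control, libraries 1 to 5 were at 505.1, 481.9, 524.7, 487.0 and 483.0 FPKM. In si-*Fndc1*, libraries 1 to 5 were at 414.1, 419.2, 437.9, 424.6 and 431.5 FPKM. All si-*Fndc1* libraries were lower, by 14.3% on average (496.3 ± 18.4 against 425.4 ± 9.50 FPKM, SD, n = 5 each), or -0.21 in log2 (standard error 0.03). An unnamed gene on the same strand (ENSMUSG00002074901) overlaps *Col3a1* in the authors' table and had up to 39061 reads, 9.32% of the highest count of *Col3a1*, and reads from the shared stretch cannot be assigned to one of the 2 genes. The other members had overlapping genes of at most 378 reads.

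The 3 chains of type V collagen, which starts fibrils and limits their width, differed among themselves. *Col5a1* (ENSMUSG00000026837, listed on chromosome 2 from 27776437 to 27929526) had 293.9, 278.4, 301.0, 299.7 and 285.5 FPKM in si-Control libraries 1 to 5. It had 229.2, 229.1, 223.9, 223.4 and 211.7 FPKM in si-*Fndc1* libraries 1 to 5. The mean was 23.4% lower, with no overlap (291.7 ± 9.63 against 223.5 ± 7.15 FPKM, SD, n = 5 each), and the log2 fold change was -0.38 (standard error 0.03). *Col5a2* (ENSMUSG00000026042, listed on chromosome 1 from 45413481 to 45542442) had 194.5, 190.2, 198.2, 197.1 and 187.4 FPKM in si-Control libraries 1 to 5. It had 173.0, 172.8, 173.9, 175.0 and 175.4 FPKM in si-*Fndc1* libraries 1 to 5. Its step was the smallest of the 6 well expressed members and its si-*Fndc1* libraries lay close together. The mean was 10.1% lower (193.5 ± 4.60 against 174.0 ± 1.17 FPKM, SD, n = 5 each), or -0.15 in log2 (standard error 0.03). *Col5a3* (ENSMUSG00000004098, listed on chromosome 9 from 20681346 to 20726363), the chain of the rarer type V form, had 49.3, 48.5, 52.6, 51.5 and 49.9 FPKM in si-Control libraries 1 to 5. It had 38.2, 38.5, 36.0, 39.5 and 36.7 FPKM in si-*Fndc1* libraries 1 to 5. Its level was several times below that of the other type V chains, while its relative step was close to that of *Col5a1*. The mean went from 50.4 ± 1.67 to 37.8 ± 1.40 FPKM (SD, n = 5 each), or -0.41 in log2 (standard error 0.03).

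The cartilage chains were near or at the floor. *Col11a1* (ENSMUSG00000027966, listed on chromosome 3 from 113824189 to 114014367) had 0.531, 0.494, 0.426, 0.470 and 0.490 FPKM in si-Control libraries 1 to 5. It had 0.505, 0.527, 0.526, 0.503 and 0.423 FPKM in si-*Fndc1* libraries 1 to 5. The groups overlapped almost fully, at 0.482 ± 0.0383 and 0.497 ± 0.0428 FPKM (SD, n = 5 each). With 339 to 575 reads per library it lay just under the level of 0.5 FPKM at which genes were tested, and without that filter its log2 fold change was 0.05 (standard error 0.09). *Col2a1* (ENSMUSG00000022483, listed on chromosome 15 from 97873483 to 97902576) had 8, 0, 4, 4 and 0 reads in si-Control libraries 1 to 5 and 4, 10, 0, 0 and 0 reads in si-*Fndc1* libraries 1 to 5, so no fold is given. The list of cartilage markers was low as well. Of its 10 genes, 9 had a mean under 0.5 FPKM and 4, among them *Acan*, *Matn1* and *Hapln1*, had no read in any library.

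**Figure D1:**
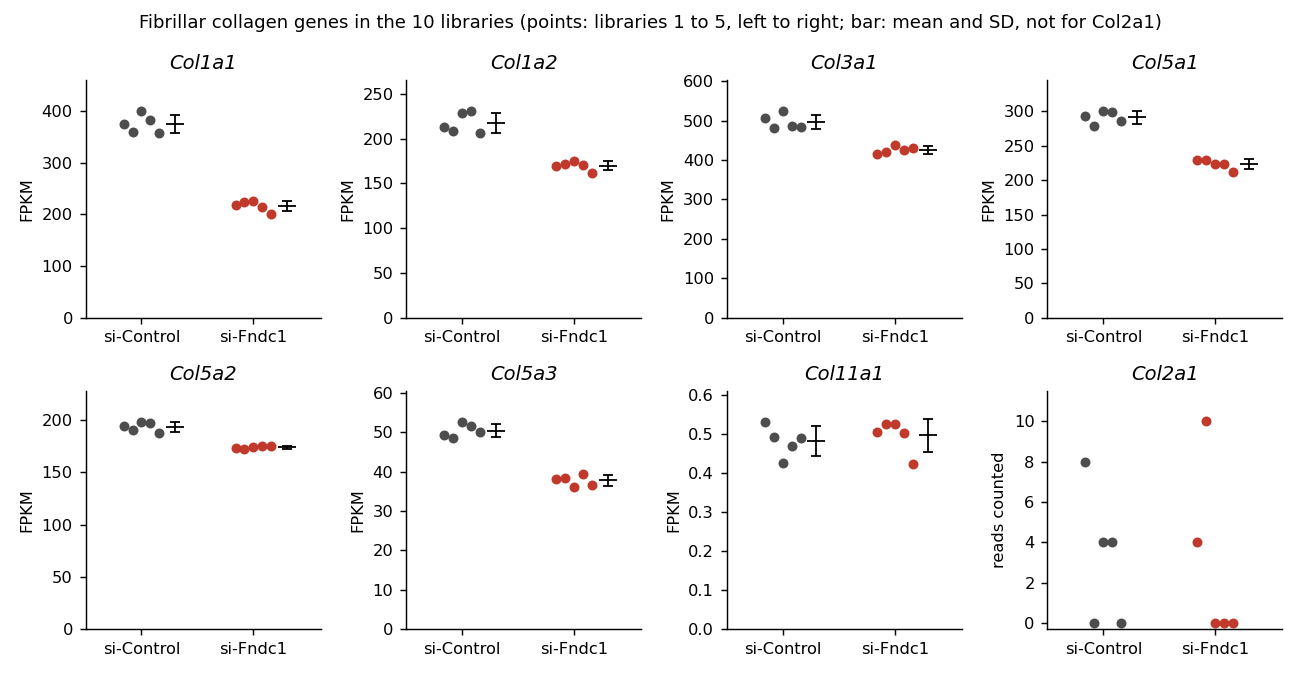
Level of the 8 fibrillar collagen genes in each library, in FPKM on linear axes (reads for *Col2a1*), with points for libraries 1 to 5 of si-Control (grey) and si-*Fndc1* (red), and a bar for the mean and SD of 5 libraries except for *Col2a1*. In 6 panels all red points lie below all grey points, from 42.2% lower on average for *Col1a1* to 10.1% lower for *Col5a2*, whereas *Col11a1* and *Col2a1* overlap.

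Of the 8 genes, 6 passed the filter on low values. All 6 were lower in si-*Fndc1* at an adjusted p under 0.05 in edgeR, and none was higher, where 17.2% of all tested genes were called lower and 17.3% higher. In FPKM, the groups of these 6 genes did not overlap, as was so, with si-*Fndc1* lower, for 13.0% of all tested genes. As the genes were chosen on this contrast, nothing is read from these counts. The fold changes spread widely within the family, from -0.78 for *Col1a1* to -0.15 for *Col5a2* on the log2 scale. When single libraries were left out, *Col1a1* stayed between -0.80 and -0.75 and *Col5a2* between -0.16 and -0.14, so that no single library set their order. Quantile normalization gave larger falls, at -0.98 for *Col1a1*, -0.53 for *Col5a1* and -0.28 for *Col5a2*. *Col1a2* (-0.47), *Col3a1* (-0.46) and *Col5a3* (-0.45) then lay close together.

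Genes rich in G and C were lower as a class. Across the 11185 tested genes with a known composition and length, the log2 fold change was lower for genes with more G and C (Spearman -0.523, a description across genes that do not vary independently). Genes of 45% to 50% GC had a median log2 fold change of 0.04, those of 50% to 55% one of -0.06, those of 55% to 60% one of -0.16, and those of 60% to 65% one of -0.24. *Col5a3*, the richest in GC of the expressed members, thus sat in a class that was lower as a whole, and 20.8% of the 505 genes of its class had a lower value than its -0.41. Among the 2346 genes of 55% to 60% GC, 11.3% had a lower value than *Col5a1* and 14.5% a lower value than *Col1a2*, whereas for *Col1a1* it was 14 genes, or 0.597%. As *Col1a1* was picked for its fall in these same libraries, its small share is a description and nothing is read from it. For *Col3a1* the share was 18.7% of 2984 genes of 50% to 55% GC, and for *Col5a2* 15.4% of 2858 genes of 45% to 50% GC.

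When the trend with GC content and length was removed within each library, *Col1a1* had a log2 fold change of -0.52 (standard error 0.03). Those of the other 5 genes lay between -0.10 and -0.06. As *Col1a1* was picked for its fall in these same libraries, its distance from the others is a description. *Col5a1* was at -0.10 (standard error 0.02), *Col5a3* at -0.08 (standard error 0.03), *Col1a2* at -0.07 (standard error 0.04), and *Col3a1* and *Col5a2* both at -0.06 (standard errors 0.04 and 0.03). Of the 6 genes, 2 were then called lower (*Col1a1* and *Col5a1*), where 11.4% of the 11185 genes were called lower and 11.3% higher. Whether the trend with GC content belongs to the knockdown or to the preparation of the libraries was not tested, and no labels give a batch of library preparation.

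**Figure D2:**
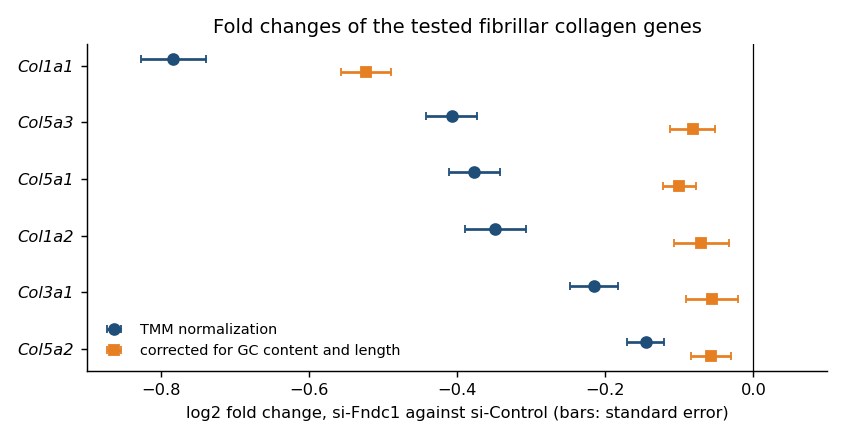
Log2 fold change of the 6 tested fibrillar collagen genes, si-*Fndc1* against si-Control (horizontal axis, with bars of 1 standard error), after TMM normalization (circles) and after correction for GC content and length (squares). The circles run from -0.78 for *Col1a1* to -0.15 for *Col5a2*, whereas the squares of all genes but *Col1a1* (-0.52) lie between -0.10 and -0.06.

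**Figure D3:**
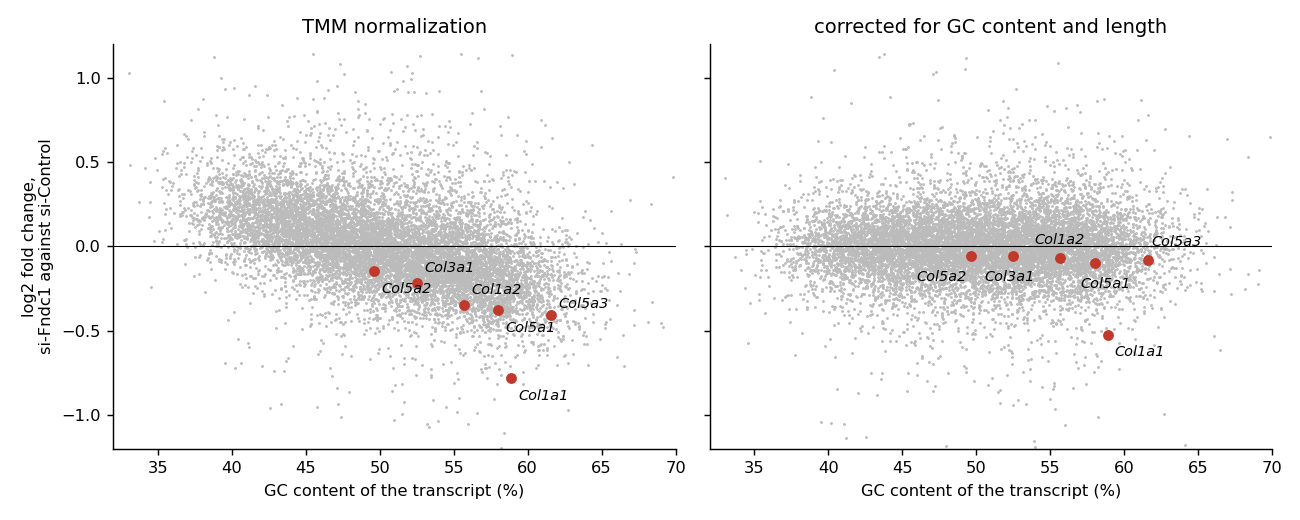
Log2 fold change, si-*Fndc1* against si-Control, of 11185 genes (grey points) against the GC content of the transcript in percent, before (left) and after (right) correction for GC content and length, with the 6 tested fibrillar collagen genes in red. The cloud slopes down on the left (Spearman -0.523) and is flat on the right (-0.006), and *Col1a1* lies near the lower edge of the cloud in both. Genes beyond 1.2 on the vertical axis (94 on the left, 91 on the right) and 8 genes outside 32% to 70% GC are not drawn.

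The ratio of *Col1a1* to *Col1a2* compares the 2 chains of type I collagen within a library, and library scaling cancels in it. The FPKM ratio was 1.76, 1.72, 1.75, 1.66 and 1.74 in si-Control libraries 1 to 5. It was 1.30, 1.30, 1.29, 1.25 and 1.24 in si-*Fndc1* libraries 1 to 5. The lowest si-Control library was thus well above the highest si-*Fndc1* library, and both groups were narrow. The mean ratio was 1.73 ± 0.0425 in si-Control and 1.28 ± 0.0251 in si-*Fndc1* (SD, n = 5 each), 26.1% lower, a log2 difference of -0.44 (standard error 0.02). It was -0.45 after correcting for GC content and length, and stayed in the range -0.45 to -0.43 when single libraries were left out. This difference is a description too, since *Col1a1* was picked for its change.

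The height of the ratio depends on the length that a gene is given, whereas its uncorrected change between groups does not. The length implied by the authors' counts and FPKM values was 1.23 times the annotated transcript for *Col1a1* and 2.58 times for *Col1a2*, against a median of 1.52 times over genes. This implied length was also the one used in the correction for GC content and length. Per kilobase of the annotated transcript, the ratio of *Col1a1* to *Col1a2* was 0.822 in si-Control and 0.608 in si-*Fndc1*. Which of the 2 chains had more RNA therefore cannot be told from these values.

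The other pairs of chains showed which members moved in step. *Col3a1* to *Col1a1* was 1.32 ± 0.0327 in si-Control and 1.96 ± 0.106 in si-*Fndc1* (SD, n = 5 each, FPKM ratio), with ranges of 1.27 to 1.35 and 1.88 to 2.14. *Col5a1* to *Col1a1* was 0.778 ± 0.0169 and 1.03 ± 0.0258 (SD, n = 5 each), again with no overlap. After correcting for GC content and length these ratios still differed, by 0.47 and 0.42 on the log2 scale. In contrast, *Col5a3* to *Col5a1* overlapped between the groups, at 0.173 ± 0.00302 and 0.169 ± 0.00610 (SD, n = 5 each). *Col5a1* to *Col5a2* was 1.51 ± 0.0248 in si-Control and 1.28 ± 0.0487 in si-*Fndc1* (SD, n = 5 each), a log2 difference of -0.23 that was -0.04 after the correction, with overlapping groups. *Col3a1* to *Col1a2* was 2.28 ± 0.105 and 2.50 ± 0.0923 (SD, n = 5 each), a log2 difference of 0.13 that was 0.01 after the correction. The ratios that kept their difference after the correction were thus the 3 that contain *Col1a1*. These differences follow from the corrected fold changes given above, in which *Col1a1*, picked for its fall, stood apart. They are no separate result.

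**Figure D4:**
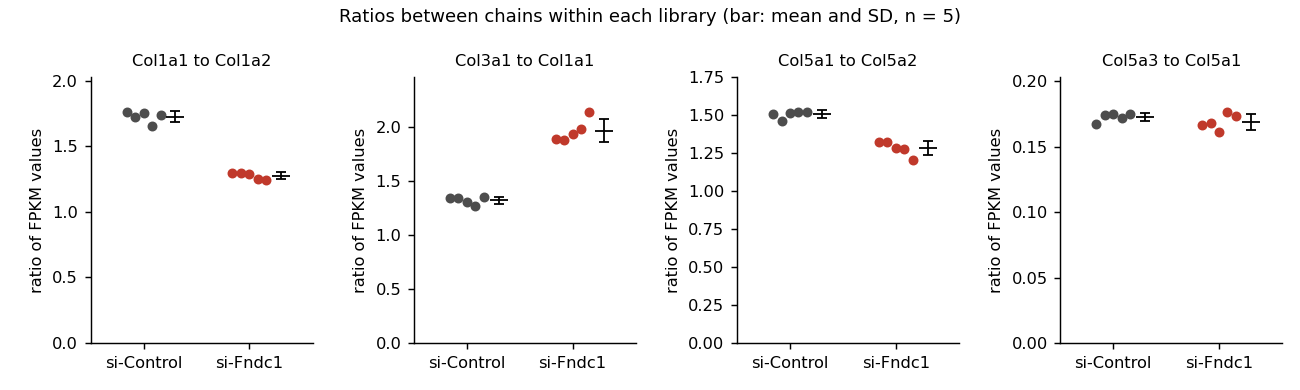
Ratio of the FPKM values of pairs of fibrillar collagen chains in each library (linear axes from 0), with points for libraries 1 to 5 and a bar for mean and SD, si-Control in grey and si-*Fndc1* in red. *Col1a1* to *Col1a2* is lower in si-*Fndc1* (1.24 to 1.30) than in si-Control (1.66 to 1.76), *Col3a1* to *Col1a1* is higher, and *Col5a3* to *Col5a1* overlaps.

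By FPKM, the order of the family in si-Control was *Col3a1*, *Col1a1*, *Col5a1*, *Col1a2*, *Col5a2*, *Col5a3*, *Col11a1* and *Col2a1*, and no 2 neighbours overlapped between libraries. *Col3a1* was the 52nd, *Col1a1* the 69th and *Col5a1* the 101st of all 55359 genes by mean FPKM. In si-*Fndc1*, *Col1a1* no longer stood above *Col5a1*, since the 2 genes overlapped (201.5 to 226.7 against 211.7 to 229.2 FPKM), and *Col5a2* and *Col1a2* overlapped as well. The share of *Col1a1* in the summed FPKM of the 8 genes was 22.8% to 23.5% in si-Control libraries and 16.5% to 17.8% after knockdown, while that of *Col3a1* was 29.5% to 31.0% and 33.3% to 35.4%. In reads per kilobase of annotated transcript, scaled to library depth, *Col3a1* was also the highest in si-Control (972.6 ± 36.0, SD, n = 5), but *Col1a2* (561.6 ± 29.5) stood above *Col1a1* (461.5 ± 21.4). The place of *Col3a1* at the top held on both scales, and the order of the type I chains did not.

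The promoters of 5 members are in the RefSeq table used here (GRCm38.p6), those of *Col1a2*, *Col3a1*, *Col5a1*, *Col5a3* and *Col11a1*. The CCAAT box, the site of the NF-Y factor that is known to drive type I collagen genes, was searched as CCAAT on both strands in the 250 bases before the annotated start. It was present in 3 of the 5 (109 bases before the start in *Col1a2*, 122 in *Col5a3* and 79 in *Col11a1*), against 33.8% of the 32851 promoters of the table. GGGCGG, searched on both strands, was in 4 of the 5 against 32.7% of all, and TATAA in 1 (*Col3a1*) against 22.8% of all. The windows of the 2 genes that were lower in si-*Fndc1* and hold a CCAAT box are shown for that reason, with the box in capitals, as chr6:4505368-4505617 on the plus strand for *Col1a2* and chr9:20815068-20815317 on the minus strand for *Col5a3*.
Col1a2: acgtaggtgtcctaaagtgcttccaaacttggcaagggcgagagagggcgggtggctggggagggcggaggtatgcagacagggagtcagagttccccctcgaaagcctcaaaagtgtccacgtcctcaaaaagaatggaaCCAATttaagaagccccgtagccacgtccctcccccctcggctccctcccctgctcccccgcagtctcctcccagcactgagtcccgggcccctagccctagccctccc
Col5a3: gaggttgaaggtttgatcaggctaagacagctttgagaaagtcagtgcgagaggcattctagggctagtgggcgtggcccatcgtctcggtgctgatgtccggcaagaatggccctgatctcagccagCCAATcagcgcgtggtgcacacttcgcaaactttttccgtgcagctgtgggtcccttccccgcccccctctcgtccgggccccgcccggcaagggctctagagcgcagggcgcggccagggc

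These windows are 62.0% and 62.8% G and C, whereas that of *Col3a1* is 35.2%. The windows of *Col3a1* and *Col5a1*, also lower in si-*Fndc1*, hold no CCAAT box, and that of *Col1a1* was not available. The window of *Col11a1* holds a CCAAT box, while the FPKM of this gene overlapped between the groups. A part of the box in the lower levels was not tested. A match of letters is a description and not evidence of binding.

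The other genes of the collagen pathway were followed in lists by role. Over 125 genes of these lists, 84 were tested, and 30 fell and 13 rose at an adjusted p under 0.05 (edgeR), where 17.2% of all tested genes fell and 17.3% rose. Their median log2 fold change was -0.07, beside 0.00 over all tested genes. Quantile normalization gave 37 lower and 8 higher, beside 2542 lower and 2134 higher over all 13548 tested genes. After correcting for GC content and length, 12 fell and 9 rose of 83, with a median of 0.03. In that fit 11.4% of all 11185 genes fell and 11.3% rose. The lists were written with earlier results of these libraries known. The shares of 17.2% lower and 17.3% higher over all tested genes also stand beside the counts of each list below.

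**Figure D5:**
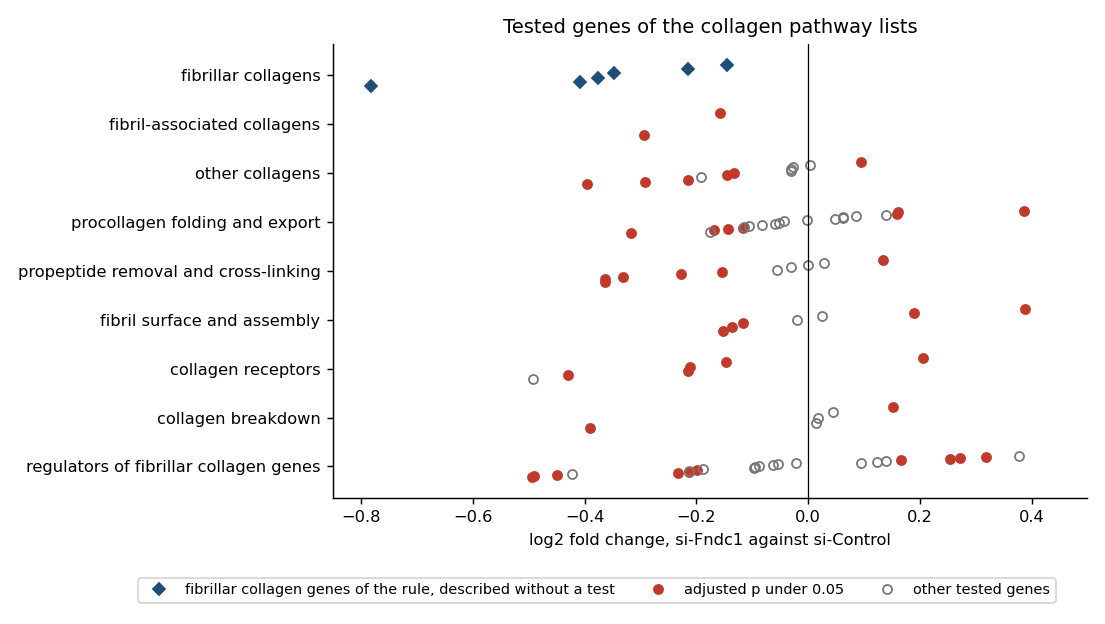
Log2 fold change, si-*Fndc1* against si-Control (horizontal axis), of each tested gene of the collagen pathway lists, 1 row per list, after TMM normalization. The 6 fibrillar collagen genes (diamonds) are described without a test, filled circles mark the 43 other genes with an adjusted p under 0.05 (30 lower, 13 higher), and open circles the remaining tested genes. *Col1a1*, at -0.78, lies to the left of every gene of the other lists.

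No other fibrillar chain was expressed at the tested level. *Col11a2* was at 0.385 ± 0.0924 FPKM, *Col27a1* at 0.210 ± 0.0520 FPKM and *Col24a1* at 0.0363 ± 0.0203 FPKM in si-Control (SD, n = 5), and the groups overlapped for each. Of the fibril-associated collagens, which sit on the surface of type I fibrils, 2 were tested and both fell. *Col12a1* fell from 56.3 ± 2.79 to 50.2 ± 3.18 FPKM (SD, n = 5 each), by -0.16 in log2 (adjusted p = 0.0296, edgeR). *Col16a1* fell from 5.17 ± 0.207 to 4.20 ± 0.348 FPKM (SD, n = 5 each), by -0.29 in log2 (adjusted p = 0.00297, edgeR). Neither passed the test after correcting for GC content and length, where *Col16a1* was at 0.03.

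Among the other collagens, 5 of 11 tested genes fell and 1 rose. The 3 tested chains of type VI collagen, which links cells to fibrils around muscle, fell, but *Col6a1* and *Col6a2* turned direction under the GC and length correction (0.02 and 0.10). *Col6a3* fell from 35.7 to 29.0 FPKM (log2 fold change -0.29, adjusted p = 0.000715, edgeR), *Col6a1* from 210.5 to 189.2 FPKM (-0.15, adjusted p = 0.00348) and *Col6a2* from 65.7 to 59.5 FPKM (-0.13, adjusted p = 0.00942). *Col23a1* (-0.39) and *Col18a1* (-0.22, but 0.07 after the correction) fell as well, and *Col8a1* rose by 0.09. The basement membrane chains *Col4a1* and *Col4a2*, at 44.1 and 64.6 FPKM in si-Control, were both at -0.03 (adjusted p = 0.712 and 0.607, edgeR). After the correction none of the 5 falls passed the test, whereas *Col4a1* (0.22) and *Col4a2* (0.27) did, upwards.

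Of 20 tested genes for folding, modification and export of procollagen, 4 fell and 3 rose. *Ppib*, the proline isomerase of the endoplasmic reticulum that acts on folding chains, rose from 49.9 ± 3.31 to 64.9 ± 3.17 FPKM (SD, n = 5 each), by 0.39 in log2 (adjusted p = 0.000249, edgeR) and was at 0.44 after the correction. The prolyl hydroxylase subunit *P4ha1* (0.16) and the lysyl hydroxylase *Plod2* (0.16) rose, and the lysyl hydroxylase *Plod1* (-0.12) fell, as did *P3h3* (-0.32) and *Crtap* (-0.17) of the prolyl 3-hydroxylase machinery and the COPII coat gene *Sec24d* (-0.14). After the correction *Sec24d* was still lower, while *Ppib*, *P4hb* (0.08) and, against its first direction, *Plod1* (0.09) were higher. *P4hb*, a subunit of prolyl 4-hydroxylase, was at 329 ± 7.36 and 338 ± 5.92 FPKM (SD, n = 5 each), by 0.05 in log2 (adjusted p = 0.199, edgeR). The collagen chaperone *Serpinh1* was at 358.8, 365.4, 347.0, 349.0 and 166.0 FPKM in si-Control libraries 1 to 5, and at 319.8 to 357.9 FPKM in si-*Fndc1*. Its log2 fold change was 0.14 (adjusted p = 0.582, edgeR) and -0.02 without si-Control replicate 5, the library at 166.0. In that library *Col1a1* was at 358.3 FPKM, the lowest of its group by a small step.

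Of 10 tested enzymes that finish the secreted molecule, 5 fell and 1 rose, where 17.2% of all tested genes fell and 17.3% rose. *Adamts2*, which removes the amino-terminal propeptide, fell from 20.5 ± 0.754 to 15.8 ± 0.482 FPKM (SD, n = 5 each), by -0.36 in log2 (adjusted p = 4e-05, edgeR). *Loxl1*, a cross-linking enzyme, fell from 103.5 ± 3.88 to 80.0 ± 2.38 FPKM (SD, n = 5 each), by -0.36 in log2 (adjusted p = 4.2e-05, edgeR). These 2 were the falls that also passed after the correction (-0.17 and -0.13). *Adamts14* (-0.33), the carboxy-terminal proteinase *Bmp1* (-0.23) and *Loxl4* (-0.15) fell only without it, and *Lox* rose from 286 to 312 FPKM (0.13, adjusted p = 0.00439, edgeR) but was at -0.04 with it and also under quantile normalization.

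On the surface of the fibril, 3 of 7 tested genes fell and 2 rose. Decorin (*Dcn*), a proteoglycan that binds type I collagen, rose from 15.5 ± 0.340 to 20.2 ± 0.949 FPKM (SD, n = 5 each), by 0.39 in log2 (adjusted p = 2.9e-05, edgeR) and stayed higher after the correction (0.23). *Postn* rose (0.19), and *Sparc* (-0.15), *Fn1* (-0.14) and *Bgn* (-0.12) fell, of which *Sparc* also fell after the correction (-0.11) and *Fn1* was at 0.07. *Postn* did not pass the test after the correction (0.12) or under quantile normalization (0.07). Of the receptors, 4 of 6 fell and 1 rose. *Ddr1*, a tyrosine kinase that binds fibrillar collagen, fell from 31.7 ± 0.752 to 23.4 ± 0.394 FPKM (SD, n = 5 each), by -0.43 in log2 (adjusted p = 7.9e-06, edgeR) and was at -0.18 after the correction, the only receptor that passed the test there. The collagen-binding integrin chains *Itga10* (-0.22) and *Itga11* (-0.15) and the uptake receptor *Mrc2* (-0.21) fell, of which *Itga11* (0.01) and *Mrc2* (0.05) turned direction after the correction. *Itgb1*, the partner chain of both integrins, rose (0.21). Among 5 tested genes of collagen breakdown, the membrane collagenase *Mmp14* fell from 158.4 ± 5.63 to 120.2 ± 3.32 FPKM (SD, n = 5 each), by -0.39 in log2 (adjusted p = 2.4e-05, edgeR), at -0.23 after the correction. The inhibitor *Timp1* rose (0.15) and was at -0.02 after the correction and -0.05 under quantile normalization.

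Of 23 tested regulators of fibrillar collagen genes, 6 fell and 4 rose. *Creb3l1*, a factor of the endoplasmic reticulum known to drive *Col1a1*, fell most clearly. It was at 86.2, 85.9, 90.4, 88.5 and 90.1 FPKM in si-Control libraries 1 to 5 and at 60.4, 61.2, 63.0, 65.9 and 61.8 FPKM in si-*Fndc1* libraries 1 to 5, with no overlap. The change in log2 was -0.49 ± 0.03 (standard error, adjusted p = 8.5e-06, edgeR), and -0.34 after the correction. *Smad7*, an inhibitor of TGF-β signalling, fell from 4.86 ± 0.206 to 3.43 ± 0.201 FPKM (SD, n = 5 each), by -0.49 in log2 (adjusted p = 0.0001, edgeR). *Larp6*, which binds the messenger RNAs of type I collagen, fell from 1.49 ± 0.0838 to 1.08 ± 0.112 FPKM (SD, n = 5 each), by -0.45 in log2 (adjusted p = 0.00616, edgeR). *Runx2* (-0.23), *Sp1* (-0.21) and *Tgfb3* (-0.20) fell as well. *Nfyc* (0.32) and *Nfyb* (0.25), subunits of NF-Y, rose, as did *Sp3* (0.27) and *Tgfb2* (0.17). *Nfya*, also a subunit of NF-Y, was at -0.02 (adjusted p = 0.821, edgeR), and *Atf4* at -0.19 (adjusted p = 0.160, edgeR). After the correction the 6 genes that fell were still lower, and *Nfyc*, *Tgfb2* and *Tgfb1* (0.41) were higher. *Nfyb* and *Sp3* (both 0.05) did not pass the test there.

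Some calls close to the threshold changed when single libraries were left out. *Loxl4* lost its call without any 1 of 9 libraries (-0.17 to -0.13, all but si-*Fndc1* replicate 1). *Crtap* (-0.18 to -0.12) kept it only without si-*Fndc1* replicate 2 or 3, and *Plod1* (-0.12 to -0.10) and *Itga11* (-0.16 to -0.13) only without replicate 2 of either group. *Col12a1* (-0.16 to -0.13) kept it without si-Control replicate 2 or si-*Fndc1* replicate 1 or 2. *P3h3* (-0.31 to -0.27) lost it without si-Control replicate 2, 4 or 5 or si-*Fndc1* replicate 2, 4 or 5, and *Col8a1* (0.08 to 0.10) without si-Control replicate 2, 3 or 5 or si-*Fndc1* replicate 2, 4 or 5. *Fn1* (-0.13 to -0.12) lost it without si-Control replicate 1 or 3 or si-*Fndc1* replicate 1. *Sox9*, a cartilage marker that missed the threshold at -0.21, passed it without replicate 2 of either group (-0.28 to -0.25), and also with DESeq2, with limma on log FPKM and with the stricter filter on low values.

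Members aside, genes among those most like *Col1a1* over the 10 libraries, by Pearson's r of log2 CPM (reads scaled to library depth), were *Ggcx* (0.995), *Chd3* (0.994), *Chpf2* (0.994) and *Gpc1* (0.993). The step between the groups enters this likeness, and the points share library and depth. After the mean of its group was subtracted from each library, the closest genes were *Ggcx* (0.976), *Pcdhb16* (0.944), *Nisch* (0.938), *Gm45820* (0.935) and *Gaa* (0.928). *Gm45820* was near the floor, with only 9 to 26 reads per si-Control library and 4 to 19 per si-*Fndc1* library. Among the members, *Col5a1* (0.893) and *Col1a2* (0.887) then followed *Col1a1* more closely than *Col5a2* (0.618), *Col3a1* (0.535) and *Col5a3* (0.465). All of these are descriptions over 10 libraries.

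Markers of the labelled cell type and of others were set beside the collagen genes. The 10 skeletal muscle markers summed to 4184 to 4675 FPKM in si-Control and 3967 to 4724 FPKM in si-*Fndc1*, and *Acta1*, *Des* and *Tnnt3* led them. Of these 10 genes 4 rose (*Myod1*, *Ckm*, *Tnnt1* and *Mymk*, from 0.16 to 0.39) and none fell with TMM normalization. Under quantile normalization *Des* (-0.28) and *Tnnt3* (-0.30) were called lower. *Myod1* (0.10), *Tnnt1* (0.21) and *Mymk* (0.06) then lost their call, and *Ckm* (0.32) kept it. After correcting for GC content and length, *Myod1*, *Ckm*, *Tnnt1* and *Des* (0.10) were higher, *Mymk* did not pass the test, and *Myog* was lower (-0.18, adjusted p = 0.0217, edgeR). The 8 genes listed as fibroblast markers summed to 1145 to 1366 FPKM in si-Control and 1675 to 1974 FPKM in si-*Fndc1*, in the direction opposite to the collagens. The sum was carried by *S100a4* (0.59) and *Vim* (0.47), which rose, while *Pdgfrb* (-0.31) and *Twist2* (-0.41) fell. Of these, *Twist2* did not pass after the correction. The listed *Tcf4* (-0.24) is not the gene of the connective tissue marker known by that name, which is *Tcf7l2*, and says nothing of fibroblasts here. The 8 bone markers summed to 9.36 to 10.7 FPKM and 9.44 to 11.97 FPKM, with 6 of them under 0.5 FPKM on average, and the 10 cartilage markers to 7.06 to 8.21 FPKM and 6.10 to 7.71 FPKM, nearly all of it *Sox9*.

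Hepatocyte transcripts moved with the groups. The 14 markers summed to 0.0780, 1.89, 4.81, 0.0443 and 6.46 FPKM in si-Control libraries 1 to 5 and to 105.1, 182.8, 178.6, 179.8 and 51.4 FPKM in si-*Fndc1* libraries 1 to 5, and all 13 tested ones rose, led by *Alb*, *Apoa2* and *Apoa1*. *Col1a1* was at 375.2, 359.5, 400.7, 383.0 and 358.3 FPKM in the same si-Control libraries. It was at 218.9, 223.1, 226.7, 214.4 and 201.5 FPKM in the same si-*Fndc1* libraries. The hepatocyte sums did not overlap between the groups, so they are confounded with the knockdown. The part of these transcripts, and of the fibroblast markers, in the collagen results was not tested.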

How the data were processed

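RNA of 10 C2C12 libraries, 5 si-Control and 5 si-*Fndc1*, was sequenced, while the paper's methods name 4 libraries without saying which. The authors deposited 1 gene table with read counts and FPKM values. Per the paper's methods the counts were made with htseq-count, and the aligner and genome differ between the sources (TopHat in the methods, STAR in the design text, GRCm39 with cutadapt 1.9 in the submitters' processing notes). How the authors computed FPKM, and whether counting used strand, is not given in the sources used here. FPKM is listed as 0.0001 where a count is 0.

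Counts were fitted with edgeR 4.0.16 (TMM, quasi-likelihood test, R 4.3.3) over genes with a mean of at least 0.5 FPKM, with Benjamini-Hochberg adjustment. The standard error is the log2 fold change divided by the square root of F. Alternatives used limma 3.58.1, DESeq2 1.42.0 and offsets for GC content and length (robust splines with 5 degrees of freedom, MASS 7.3.60.0.1), with compositions from GENCODE vM1 transcripts. The lengths in these offsets were those implied by the authors' counts and FPKM values. Ratios were taken within each library, with Python 3.11.15. Scripts were tested on simulated data.

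Members and lists were chosen with earlier results of these data known. Named were the 8 members, *Fndc1*, in each pathway list the 4 called genes with the largest change and the 2 with the highest mean FPKM, in marker lists up to 3 with the highest mean FPKM, and the 5 genes most like *Col1a1* on each of 2 measures, of which 1 gene is not reported here. *Col6a2*, *Col8a1*, *Col4a1*, *Plod1*, *Plod2*, *Sec24d*, *Loxl4*, *Bgn*, *Itga11*, *Tgfb1*, *Tgfb2*, *Tgfb3*, *Sp1*, *Sp3*, *Nfya*, *Nfyb*, *Tcf4*, *Twist2*, *Myod1*, *Myog*, *Ckm*, *Tnnt1* and *Mymk* were named after their values were seen. So were the untested *Col11a2*, *Col24a1*, *Col27a1*, *Acan*, *Matn1* and *Hapln1*. *Tcf4* stood in the fibroblast list in error and was left in the summed level. Libraries of a group differed from each other by more than counting noise (chi-square per degree of freedom 41.5 to 77.6 over 20 pairs), so none was a copy. Replicate numbers did not pair the libraries.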

Additional observations from a re-analysis of the deposited data

Results flagged for a closer look

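Of 182 groups of 5 libraries examined, 14 (7.69%) had 1 library apart from the other 4, with a gap over 0.71 of the group's range. Chance flags about 1 in 20 groups, and no cause was tested.

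Among the collagen values, *Col11a1* had one low si-*Fndc1* library (0.423 FPKM). The *Col5a1* to *Col5a2* ratio had one low si-Control library (1.46), and the *Col3a1* to *Col1a2* ratio one high si-*Fndc1* library (2.66). *Col6a2* had one high si-*Fndc1* library (62.4 FPKM).

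The chaperone *Serpinh1* had one low library in each group, at 166.0 FPKM in si-Control and 319.8 FPKM in si-*Fndc1*. *Ddr1* had one low si-Control library (30.4 FPKM). *Itgb1* had one high library in each group, at 314.6 FPKM in si-Control and 375.5 FPKM in si-*Fndc1*. *Sp3* (7.12 FPKM) and *Myod1* (40.4 FPKM) each had one low si-Control library. *Sox9* had one high si-*Fndc1* library (7.55 FPKM), and *Bglap2* had one low si-Control (3.31 FPKM) and one high si-*Fndc1* library (6.99 FPKM).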

How the results depend on the processing

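All 6 tested collagen members remained called and lower under every alternative but the correction for GC content and length, which left 2 of them, 2537 called genes (of 4663) and 21 genes of the collagen pathway (of 43; 9 higher, 12 lower). With that correction and the replicate block together, 2 members, 1645 genes and 13 pathway genes were called. On the same 11185 genes without correction, an alternative chosen after seeing the data, 4244 genes and 6 members were called. Leaving out 1 library in turn gave 4000 to 4627 called genes, 36 to 41 pathway genes and 6 members, and a *Col1a1* to *Col1a2* log2 difference from -0.45 to -0.43. Replicate numbers did not pair libraries (correlations of same-numbered libraries -0.05 to 0.06, 0 of 5 over 0.1, and 1 control library correlated best with its own number); with the replicate block 3572 genes, 6 members and 36 pathway genes were called and the ratio differed by -0.44. The remaining alternatives gave 3431 to 5019 called genes. Quantile normalization gave 8 higher and 37 lower pathway genes, against 13 and 30, with 2134 higher and 2542 lower over all 13548 tested genes.

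Under the correction, and alike with the block, the log2 fold change reversed for *Col16a1* (0.0272 and 0.0250), *Col18a1* (0.0734 and 0.0726), *Col6a1* (0.0216 and 0.0216), *Col6a2* (0.10 and 0.10), *Col4a1* (0.22 and 0.22), *Col4a2* (0.27 and 0.27), *Bmp1* (0.0609 and 0.0607), *Lox* (-0.0395 and -0.0403), *Loxl4* (0.00797 and 0.00698), *Plod1* (0.0852 and 0.0851), *Fn1* (0.0738 and 0.0739), *Mrc2* (0.0487 and 0.0492), *Itga11* (0.00575 and 0.00652), *Timp1* (-0.0195 and -0.0203), *Nisch* (0.29 and 0.29) and *Gaa* (0.0268 and 0.0268), and without the block for *Des* (0.10). Quantile normalization reversed *Lox* (-0.0408), *Timp1* (-0.0543), *P4hb* (-0.15) and *Timp2* (-0.16). The cause was not tested. Of the other values of single genes, 1569 kept direction and side of the threshold, 131 lost their call and 10 gained one.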
